A study of Mus musculus with 10 samples.

Results

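Flt3 and 9 other genes that mark lymphoid priming were followed in bone marrow progenitors of Dnmt3a knockout mice. The 10 genes were taken by name: the cytokine receptor genes Flt3 and Il7r, the recombination genes Rag1, Rag2 and Dntt, the transcription and chromatin factor genes Ikzf1, Satb1 and Bcl11a, and the receptor genes Notch1 and Ccr9. All 10 are among the 38086 gene IDs that the count tables of both populations hold, and all 10 passed the filter on low counts in every comparison. In GMP, Rag1 passed it only through the CTRL libraries. KO mice were Dnmt3a f/f Mx1-Cre+ and CTRL mice Dnmt3a f/f Mx1-Cre-, all on the C57BL/6 strain, 12 months of age and given 5 injections of poly(I:C), which switches on the Mx1 promoter that drives Cre in blood-forming cells. Because the CTRL mice lack the transgene, loss of Dnmt3a and presence of Cre cannot be told apart. LSK cells (lineage-negative, Sca1+, cKit+) hold stem cells and multipotent progenitors, while GMP are the granulocyte-macrophage progenitors, which were sorted as CD34+ FcgR+ cells among lineage-negative, Sca1-, cKit+ marrow and give rise to myeloid cells. RNA-seq of total RNA gave 3 KO and 2 CTRL libraries of each population, 10 in all, each named by genotype and the number in its title.

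Lymphoid priming is the low-level expression of lymphoid genes in multipotent progenitors before commitment. Flt3 encodes a receptor tyrosine kinase for FLT3 ligand, and multipotent progenitors with much of it on the surface are known for lymphoid potential and for the early expression of Rag1, Dntt and, later, Il7r. Dendritic cell and monocyte precursors also use Flt3, whereas it is normally reduced on the way to granulocytes. Dnmt3a adds methyl groups to cytosines in CpG dinucleotides; methylation itself was not analysed here.

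Reads counted on genes numbered 29533371 to 30437981 per LSK library and 93850256 to 122658636 per GMP library. Levels are CPM, a gene's reads scaled to a common library size, at the normalized library sizes of a fit over all 10 libraries, so that the groups share a scale. Dnmt3a itself stood at 55.5, 51.2 and 57.1 CPM in LSK KO libraries, against 151 and 145 CPM in LSK CTRL libraries, and at 51.7, 65.9 and 20.5 CPM in GMP KO libraries, against 143 and 115 CPM in GMP CTRL libraries. The fall passed the test in LSK (log2 fold change −1.43 ± 0.08 SE, edgeR adjusted p = 1.06e-04) and not in GMP (−1.499 ± 0.42, adjusted p = 0.300), and the counts include exons outside the floxed part. Gate markers followed the labels: Ly6a, which encodes Sca1, was at 17.8 to 21.8 CPM in LSK and 0.931 to 1.97 CPM in GMP, Fcgr3, an Fc receptor gene, was at 17.5 to 23.9 CPM in LSK and 326 to 415 CPM in GMP, and the summed level of 8 primary granule and myeloid progenitor markers was 1826 to 2432 CPM in LSK and 15819 to 25793 CPM in GMP. Judged from Xist and Y-linked reads, LSK libraries KO-1327 and CTRL-1326 were male and the other 3 female, and the 5 GMP libraries were male. GMP library KO-352 carries a description that refers to LSK data; its title was followed, and its Ly6a level of 1.76 CPM and Fcgr3 level of 374 CPM lay with the GMP libraries.

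The promoters of the 10 genes differ widely in CpG content, the substrate of Dnmt3a. In the RefSeq promoter table (GRCm38.p6; 250 bases before to 50 after the start) all 10 genes matched, with 15 promoters. Flt3 had 18 CpG in the 300 bases, more than 70.3% of the 32851 promoters in the table, whose median is 7. Notch1 and Bcl11a had 23 each and the first Ikzf1 promoter 52, while Ccr9 had 4, Rag1 and Rag2 3 each, Dntt 2 and Il7r 1. The second Ikzf1 promoter had 2 CpG, and the 5 Satb1 promoters had 8, 45, 3, 13 and 7. The 250 bases upstream of the start are shown for Flt3 and Rag1, whose fitted differences between KO and CTRL in GMP were the largest of the group in either direction, beside Bcl11a, another CpG-rich promoter, and Dntt, another CpG-poor lymphoid gene, each 5′ to 3′ on its own strand with every CpG in capitals. The windows are chr5:147400490-147400739 on the minus strand (Flt3), chr11:24080445-24080694 on the plus strand (Bcl11a), chr2:101649533-101649782 on the minus strand (Rag1) and chr19:41029025-41029274 on the plus strand (Dntt).
Flt3: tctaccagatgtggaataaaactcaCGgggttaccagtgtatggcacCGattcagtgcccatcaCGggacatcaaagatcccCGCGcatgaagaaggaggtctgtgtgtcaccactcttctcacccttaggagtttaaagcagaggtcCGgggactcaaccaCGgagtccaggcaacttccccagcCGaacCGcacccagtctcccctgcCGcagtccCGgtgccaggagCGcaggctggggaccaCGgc
Bcl11a: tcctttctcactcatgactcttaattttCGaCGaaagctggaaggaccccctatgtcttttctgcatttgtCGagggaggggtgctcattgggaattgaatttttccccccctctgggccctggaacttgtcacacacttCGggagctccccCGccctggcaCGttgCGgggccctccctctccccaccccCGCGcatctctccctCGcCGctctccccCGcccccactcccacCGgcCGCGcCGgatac
Rag1: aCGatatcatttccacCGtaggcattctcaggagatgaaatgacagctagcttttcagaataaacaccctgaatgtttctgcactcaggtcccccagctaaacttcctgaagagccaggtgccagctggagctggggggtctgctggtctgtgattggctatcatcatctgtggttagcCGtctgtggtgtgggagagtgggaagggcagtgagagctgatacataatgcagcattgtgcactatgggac
Dntt: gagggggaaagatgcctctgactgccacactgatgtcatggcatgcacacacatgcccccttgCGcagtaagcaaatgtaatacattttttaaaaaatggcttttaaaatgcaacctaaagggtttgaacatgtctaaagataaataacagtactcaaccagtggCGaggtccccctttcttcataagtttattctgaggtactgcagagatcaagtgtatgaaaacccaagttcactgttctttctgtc
These windows hold 13, 16, 3 and 2 CpG in that order. Over the 300-base windows and both strands, GAGGAA, a core of PU.1 sites, was found in 5 of the 15 promoters and 28.3% of all promoters, the E-box CANNTG in 11 of 15 and 72.3%, TGTGGT, a core of RUNX sites, in 2 of 15 and 16.8%, and AGATAA, a core of GATA sites, in 1 of 15 and 11.2%. The GAGGAA matches lay in the promoters of Notch1 and Rag2 and in Satb1 promoters 1, 4 and 5. Windows 4 and 5 of Satb1 overlap, so the 15 promoters are not all separate sequences. The Rag1 window holds 2 matches to TGTGGT, and the Dntt window holds the match to AGATAA.

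Every gene of the group was expressed at higher levels in LSK than in GMP, in both genotypes. Within KO mice 10 of 10 were called higher in LSK (edgeR, adjusted p 6.39e-07 to 0.0231), where 30.7% of all 18836 genes tested were called higher, and the median log2 fold change was 1.78, against 0.08 over all genes. Within CTRL mice 10 of 10 were called higher in LSK (adjusted p 3.21e-06 to 0.0442), where 28.2% of all genes were, with a median of 2.74 against 0.12. In all 10 genes every LSK library lay above every GMP library of the same genotype, against 35.4% of all genes in KO and 41.8% in CTRL mice. Population coincides in these data with the count table, its annotation and its depth, and these cannot be told apart from the cell type. Sex was also unbalanced, as all GMP libraries were male and 3 LSK libraries female, and its part was not tested. Scaling by library totals alone shifted the median of all genes by 0.38 in KO and 0.41 in CTRL mice, towards LSK, and left all of these calls in place.

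**Figure D1:**
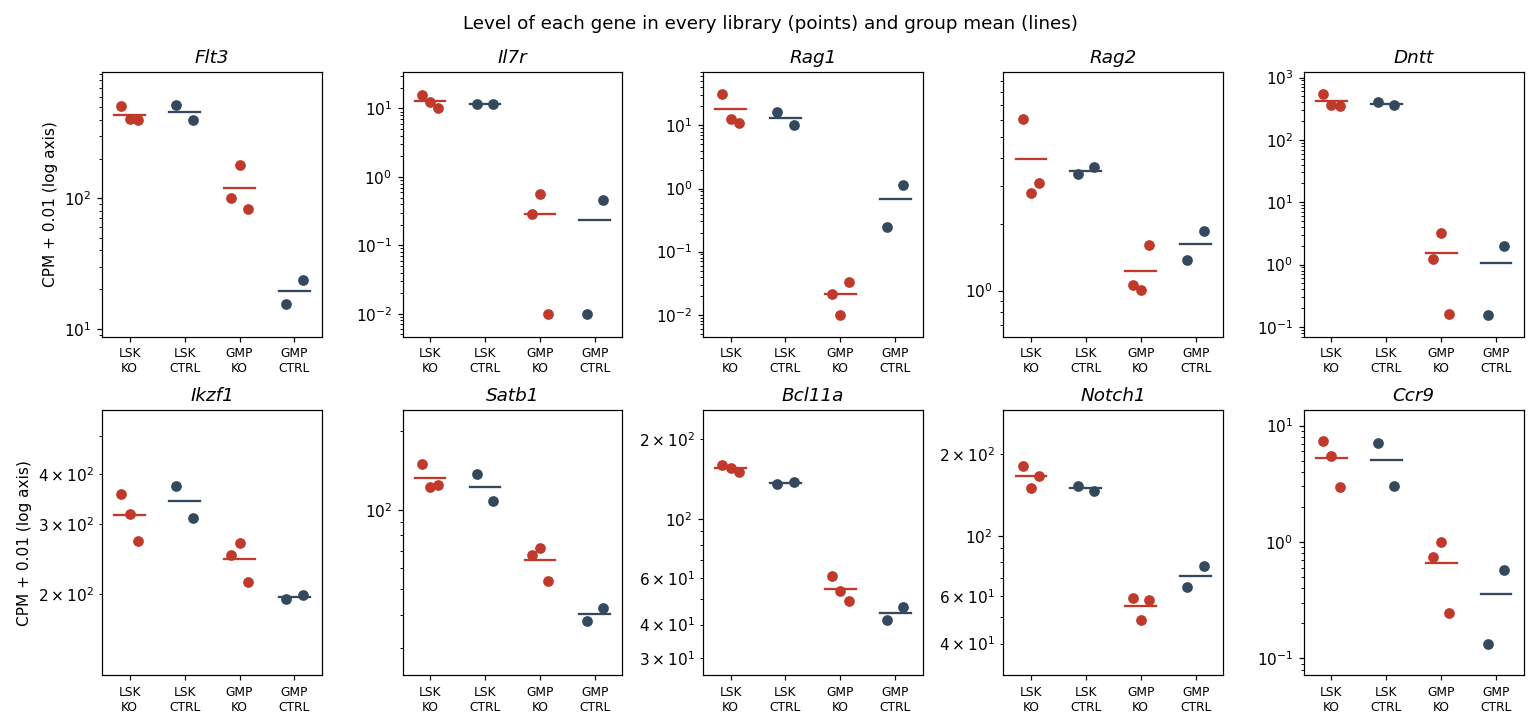
Level of each gene in CPM plus 0.01 on a log axis in each of the 10 libraries (points), with the group mean (line), for LSK KO, LSK CTRL, GMP KO and GMP CTRL. Every gene is higher in LSK than in GMP; in GMP, Flt3 is at 82.2 to 178.3 CPM in KO libraries and 15.5 to 23.5 CPM in CTRL libraries, and Rag1 is at 0 to 0.0233 CPM in KO libraries and 0.232 to 1.12 CPM in CTRL libraries.

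Per kilobase of exon, Dntt, Flt3 and Ikzf1 were the most abundant of the group in LSK, in that order in both genotypes. In LSK KO libraries Dntt led with 182 ± 48.8 CPM per kb (SD, n = 3), followed by Flt3 at 70.8 ± 9.88 and Ikzf1 at 54.7 ± 7.43. The libraries of Flt3 and Ikzf1 did not overlap in LSK KO and overlapped in LSK CTRL. Bcl11a and Notch1 came next, at 11.7 ± 0.395 and 11.7 ± 1.12 CPM per kb, which did not differ beyond their spread, and then Satb1 at 6.93 ± 0.785. Rag1 (2.77 ± 1.74) and Il7r (2.73 ± 0.619) overlapped, and Rag2 (1.16 ± 0.524) and Ccr9 (0.515 ± 0.217) were the lowest. In GMP, Ikzf1 led in both genotypes, with 42.4 ± 4.85 CPM per kb in KO and 34.0 ± 0.601 CPM per kb in CTRL libraries (n = 2). Flt3 came directly after it in GMP KO libraries, at 19.5 ± 8.24 CPM per kb, whereas in GMP CTRL libraries it stood at 3.16 ± 0.911, below Notch1 (4.98 ± 0.637) and within the spread of Bcl11a (3.35 ± 0.284). At the low end in GMP KO libraries were Rag2 (0.357 ± 0.0987), Ccr9 (0.0633 ± 0.0372) and Il7r (0.0591 ± 0.0590), of which Ccr9 and Il7r overlapped, and Rag1 (0.00174 ± 0.00177).

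**Figure D2:**
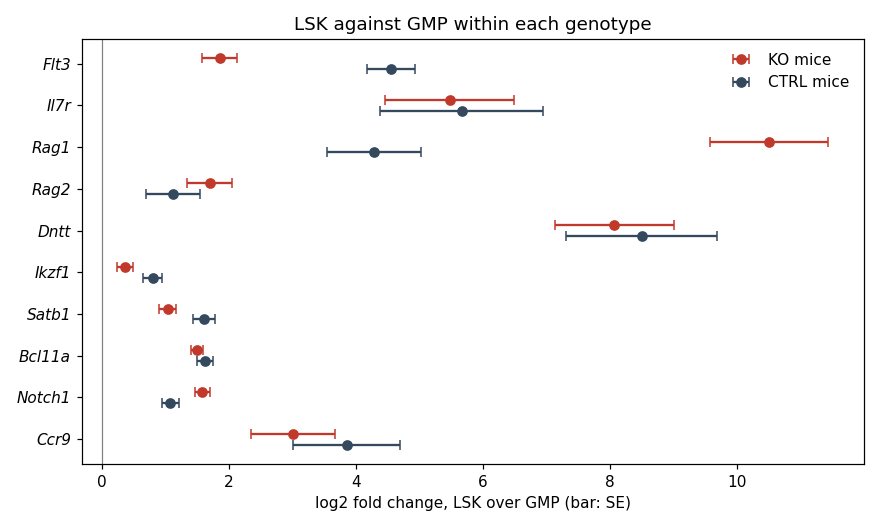
Fitted log2 fold change of LSK over GMP for each gene, with its SE as the bar, in KO mice (upper point of each pair) and CTRL mice (lower point). All values are positive; the points of Flt3 (1.86 and 4.56) and Rag1 (10.51 and 4.29) lie farthest apart between the genotypes.

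Loss of Dnmt3a went with no gene of the group called by edgeR in either population. In GMP, 0 of 10 were called by edgeR (adjusted p 0.190 to 0.9499), where 0.0347% of 17290 genes were called, 6 in all. At an unadjusted p under 0.05 there were 4 (Flt3, Satb1, Rag1 and Notch1), against 13.8% of all genes. DESeq2 called 3 (Flt3, Rag1 and Satb1), where it called 4.32% of all genes. In 4 genes (Flt3, Ikzf1, Satb1 and Bcl11a) every KO library lay above both CTRL libraries, against 17.7% of all genes, and in 2 (Rag1 and Notch1) every KO library lay below both, against 14.6%. The fitted change was positive in 7 genes and negative in 3, against 51.2% positive over all genes, with a median of 0.31, against 0.01 over all genes. In LSK, 0 of 10 were called by edgeR (adjusted p 0.9998 for each), where 0.0232% of 17238 genes were called; 1 gene, Bcl11a, had an unadjusted p under 0.05, against 2.83% of all genes, and DESeq2 called 0 of the 10, where it called 0.0802% of all genes. The LSK log2 fold changes ran from −0.11 to 0.48, with a median of 0.15 against 0.0027 over all genes. The labels do not state whether every library is its own animal, and the p-values reflect only how far these libraries vary.

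**Figure D3:**
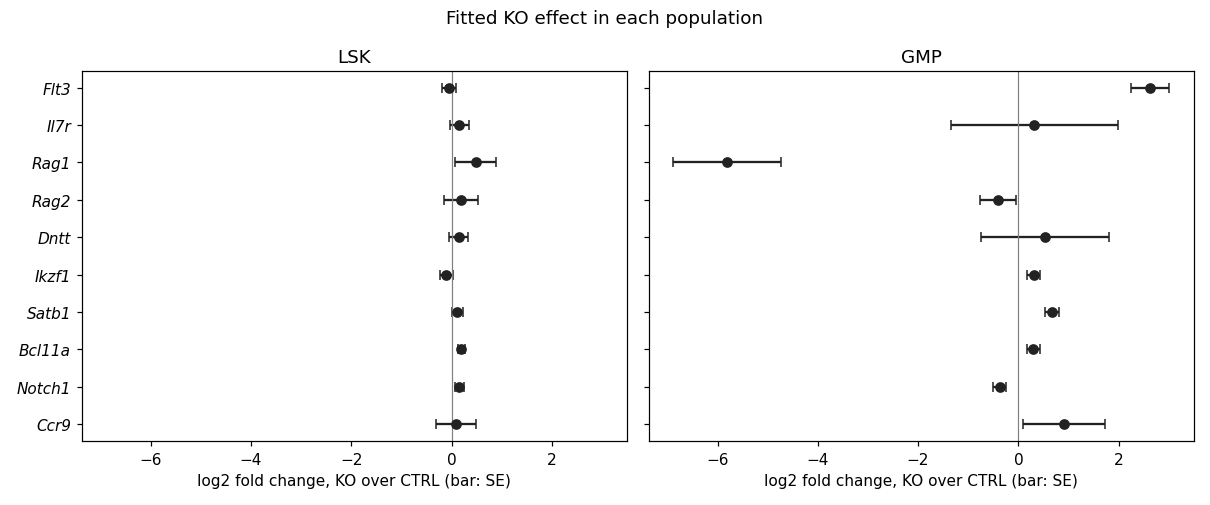
Fitted log2 fold change of KO over CTRL for each gene, with its SE as the bar, in LSK (left) and GMP (right) on the same axis. The LSK values lie between −0.11 and 0.48, and the GMP values between −5.81 (Rag1) and 2.62 (Flt3).

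Flt3 (ENSMUSG00000042817, chromosome 5, 147330741 to 147400489, minus strand, GRCm38 with GENCODE) showed the largest positive difference of the group in GMP. Its level was 101, 178.3 and 82.2 CPM in GMP KO libraries KO-178, KO-179 and KO-352, against 15.5 and 23.5 CPM in GMP CTRL libraries CTRL-346 and CTRL-350. The lowest KO library lay well above the highest CTRL library, and these levels rest on 35945 reads in KO and 3213 reads in CTRL libraries. The fitted log2 fold change was 2.62 ± 0.38, 6.16-fold, with an edgeR adjusted p of 0.190. The size varied little between settings, from 2.22 to 2.91 over 13 alternatives, but the call did not: the adjusted p ran from 5.43e-12 to 0.665 and passed in 5 of the 13, which were DESeq2 (5.43e-12), the test without a filter on low counts (0.00662), the fit of all 10 libraries (0.0110), the fit with a term for the share of reads outside genes (0.0119) and the fit without KO-352 (0.0291). In bulk samples, more cells that express a gene and more RNA of it per cell cannot be told apart.

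In LSK the Flt3 level was 508, 405 and 399 CPM in KO libraries KO-1327, KO-1333 and KO-1334, against 520 and 398 CPM in CTRL libraries CTRL-1326 and CTRL-1330. The groups overlapped, and the log2 fold change was −0.06 ± 0.14 (edgeR adjusted p = 0.9998). The difference of the KO effects, LSK minus GMP, was −2.70 ± 0.43 for Flt3 (edgeR adjusted p = 0.0984), in a comparison where edgeR called 0.0265% of 18836 genes and 0 of the 10. At an unadjusted p under 0.05 it had 5 of the 10 (Flt3, Rag1, Ikzf1, Satb1 and Notch1), against 10.1% of all genes, and DESeq2 called 2. It passed with DESeq2 (3.59e-09; 1.3% of all genes called), without the filter (0.00485), without KO-179 (0.0228) and without KO-352 (0.00967); over 15 alternatives the adjusted p ran up to 0.430. LSK exceeded GMP in Flt3 by 1.86 ± 0.27 in KO mice (edgeR adjusted p = 1.77e-04) and by 4.56 ± 0.37 in CTRL mice (6.05e-06).

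Markers of other cell types gave mixed values beside Flt3 in GMP. The summed level of 12 dendritic cell markers was 181, 193 and 278 CPM in GMP KO libraries, against 236 and 317 CPM in GMP CTRL libraries; 2 of the 9 tested were positive and 7 negative (median −0.37), and Irf8 made up most of the sum. The sum of 8 stem cell markers was 25.6 to 38.0 CPM in GMP KO libraries and 32.9 to 33.6 CPM in GMP CTRL libraries, with 5 positive and 3 negative. The sum of 6 monocyte markers was 3458 to 3977 CPM in GMP KO libraries and 2643 to 2994 CPM in GMP CTRL libraries; the groups did not overlap, led by F13a1 (log2 fold change 0.72 ± 0.17, edgeR adjusted p = 0.264) and Ccr2 (0.80 ± 0.17, 0.264), while 4 of the 6 were negative. The 8 primary granule and myeloid progenitor markers summed to 15819 to 21757 CPM in GMP KO libraries and 19871 to 25793 CPM in GMP CTRL libraries, with 7 of 8 negative. Csf1r is on both this list and the monocyte list. The 9 T and NK cell markers, led by the granule gene Nkg7, summed to 289 to 366 CPM in GMP KO libraries and 425 to 510.3 CPM in GMP CTRL libraries, although 6 of the 8 tested were positive. Among those was Cd4, at 3.03, 4.37 and 1.89 CPM in GMP KO libraries against 0.146 and 0.266 CPM in GMP CTRL libraries (3.89 ± 0.53, edgeR adjusted p = 0.169). None of these lists had a called gene in edgeR, the counts at an unadjusted p under 0.05 being 2, 2, 3, 1 and 4 in the same order and those called by DESeq2 1, 2, 2, 1 and 3, where 13.8% of all genes had such a p and DESeq2 called 4.32%. Their part in the Flt3 difference was not tested.

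Il7r (ENSMUSG00000003882, chromosome 15, 9505788 to 9530176, minus strand) encodes the alpha chain of the IL-7 receptor, which marks common lymphoid progenitors and later stages. It was at 15.8, 12.3 and 10.1 CPM in LSK KO libraries, against 11.5 and 11.5 CPM in LSK CTRL libraries, so the KO libraries lay on both sides of the CTRL libraries (log2 fold change 0.15 ± 0.19). In GMP it was near the limit of detection: 25, 61 and 0 reads, or 0.277, 0.550 and 0 CPM, in KO libraries, against 0 and 37 reads, or 0 and 0.448 CPM, in CTRL libraries. The GMP log2 fold change of 0.32 ± 1.67 therefore rests on which libraries had any reads (edgeR adjusted p = 0.9499). LSK exceeded GMP by 5.48 ± 1.02 in KO mice and 5.67 ± 1.28 in CTRL mice (edgeR adjusted p = 8.94e-04 and 0.00360).

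Rag1 (ENSMUSG00000061311, chromosome 2, 101638282 to 101649501, minus strand), the catalytic subunit of the V(D)J recombinase, had the largest negative difference of the group in GMP. GMP KO libraries held 1, 0 and 2 reads of it, or 0.0111, 0 and 0.0233 CPM, against 19 and 93 reads, or 0.232 and 1.12 CPM, in GMP CTRL libraries. All KO libraries were below both CTRL libraries, which themselves differed from each other. The ratio of KO over CTRL was 0.0154 from 3 and 112 reads, with an exact 95% counting interval of 0.00312 to 0.0461 that leaves out the spread between libraries. Rag1 passed the filter in GMP only through the CTRL libraries. A gene with so few KO reads could thus be tested only where CTRL was higher. The fitted log2 fold change was −5.81 ± 1.07 (edgeR adjusted p = 0.240). Over 13 alternatives it ran from −6.73 to −4.30 and the adjusted p from 5.66e-04 to 0.785, passing in 4: DESeq2 (5.66e-04), no filter (0.0406), the fit of all libraries (0.0408) and a term for the share of reads outside genes (0.0267).

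In LSK, Rag1 was at 31.5, 12.5 and 10.9 CPM in KO libraries, against 16.6 and 10.1 CPM in CTRL libraries, with KO-1327 highest and the groups overlapping (log2 fold change 0.48 ± 0.42, edgeR adjusted p = 0.9998). Without KO-1327 the LSK value was −0.18. LSK exceeded GMP 1757-fold by reads in KO mice (1902 against 3 reads, exact 95% counting interval 600.3 to 8528) and 19.5-fold in CTRL mice (892 against 112 reads, 16.0 to 23.9). The difference of KO effects, LSK minus GMP, was 6.22 ± 1.24 for Rag1 (edgeR adjusted p = 0.208); it passed with DESeq2 (5.31e-06), without the filter (0.0261) and without KO-352 (0.0448), in 3 of 15 alternatives with adjusted p up to 0.554.

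Markers of committed B cells lay only in part with Rag1 in GMP. Of the 9 analysed, 4 had every KO library below both CTRL libraries: Ms4a1, Vpreb3, Ebf1 and Blk. Among all genes that passed the filter 14.6% were separated this way. Blk did not pass it, with 2, 2 and 0 reads in KO and 3 and 16 reads in CTRL libraries. Cd79a, Cd79b, Vpreb1, Igll1 and Pax5 overlapped between the groups. Vpreb3, a pre-B cell gene, was at 0.166, 0.0541 and 0.0933 CPM in GMP KO libraries, against 0.512 and 0.581 CPM in GMP CTRL libraries. Ms4a1, which encodes CD20, was at 0.0111, 0.144 and 0.0117 CPM in GMP KO libraries, against 0.158 and 1.20 CPM in GMP CTRL libraries. Of the 7 tested, 6 were negative, with a median of −0.99, edgeR called 0 and DESeq2 1 (4.32% of all genes), and 3 had an unadjusted p under 0.05 (13.8% of all genes). Ebf1 had 6, 0 and 1 reads in GMP KO and 13 and 18 reads in GMP CTRL libraries. Vpreb3 had 15, 6 and 8 reads in KO and 42 and 48 reads in CTRL libraries. Ms4a1 had 1, 16 and 1 reads in KO and 13 and 99 reads in CTRL libraries. Ms4a1, Ebf1 and Vpreb3 needed the CTRL libraries to pass the filter on low counts, which favours a negative sign. The summed level of the list did not separate the groups, at 38.9, 38.2 and 49.4 CPM in GMP KO libraries against 44.7 and 44.7 CPM in GMP CTRL libraries, because Cd79b alone was at 35.3 to 47.3 CPM in KO and 39.4 to 41.4 CPM in CTRL libraries. In LSK all 9 were positive (median 0.45, 0 called by edgeR or DESeq2, 1 at an unadjusted p under 0.05, against 2.83% of all genes), and KO-1327, the library with the most Rag1, had the largest sum, 104 CPM, against 52.9 to 79.2 CPM in the other 4. Whether B lineage cells contribute to the Rag1 values was not tested.

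**Figure D4:**
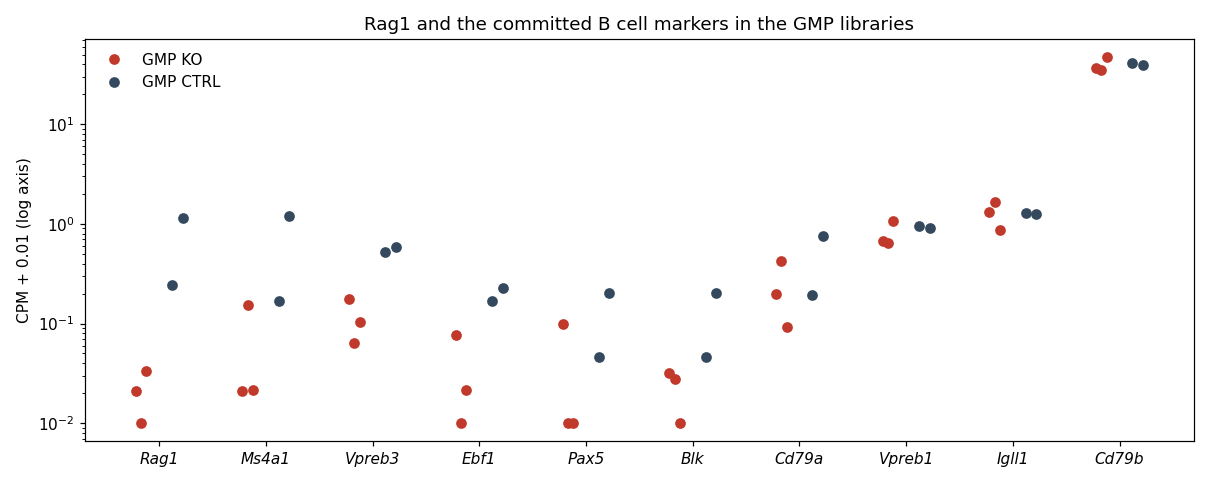
Level in CPM plus 0.01, on a log axis, of Rag1 and the 9 committed B cell markers in the 3 GMP KO libraries (left of each gene) and the 2 GMP CTRL libraries (right). Rag1, Ms4a1, Vpreb3, Ebf1 and Blk are below both CTRL libraries in every KO library, while Cd79b is at 35.3 to 47.3 CPM in KO and 39.4 to 41.4 CPM in CTRL libraries.

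Rag2 (ENSMUSG00000032864, chromosome 2, 101624718 to 101632529, plus strand), the other recombinase subunit, did not follow Rag1 in GMP. It was at 1.05, 1.001 and 1.61 CPM in GMP KO libraries, against 1.36 and 1.86 CPM in GMP CTRL libraries, which overlap (log2 fold change −0.41 ± 0.36, edgeR adjusted p = 0.614). A total of 208 exon bases of Rag2, 6.07%, overlap exons of B230118H07Rik on the opposite strand, which was at 47.7 to 54.0 CPM in GMP KO and 48.8 to 49.9 CPM in GMP CTRL libraries. The libraries came from a stranded kit, but the sources used here do not state the strand setting of the counting, so the low Rag2 level in GMP is uncertain. In LSK it was at 6.03, 2.79 and 3.07 CPM in KO libraries, against 3.38 and 3.64 CPM in CTRL libraries, with KO-1327 alone above both CTRL libraries. LSK exceeded GMP by 1.70 ± 0.35 in KO mice (edgeR adjusted p = 0.00176) and by 1.12 ± 0.42 in CTRL mice (0.0442), and the CTRL call was lost in 7 of 15 alternatives (adjusted p up to 0.181), among them those without CTRL-346 (0.181), CTRL-350 (0.0641), CTRL-1326 (0.101), CTRL-1330 (0.138), KO-178 (0.0524) and KO-1334 (0.0527), and that without the filter (0.0502).

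Dntt (ENSMUSG00000025014, chromosome 19, 41029275 to 41059525, plus strand) encodes terminal deoxynucleotidyl transferase, which adds bases at V(D)J joints. It was at 547, 361 and 346.04 CPM in LSK KO libraries, against 408 and 358 CPM in LSK CTRL libraries, overlapping with KO-1327 on top (log2 fold change 0.14 ± 0.19). In GMP it was at 1.21, 3.18 and 0.152 CPM in KO libraries, against 0.146 and 1.96 CPM in CTRL libraries. KO-352 and CTRL-346 were far below the other 3, and the spread within each genotype exceeded the difference between them (0.53 ± 1.27, edgeR adjusted p = 0.874). LSK exceeded GMP by 8.07 ± 0.94 in KO mice and 8.50 ± 1.183 in CTRL mice (edgeR adjusted p = 3.58e-05 and 1.77e-04).

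In GMP, Dntt, Il7r and Ccr9 were higher in KO-178, KO-179 and CTRL-350 than in KO-352 and CTRL-346. These 3 of 10 are near the 21.4% of all genes that divided the libraries in this way, so the split is not particular to the group, and its values are given because they lie beside the KO effects. The same 3 libraries had 15.5%, 16.1% and 14.2% of their reads outside annotated genes, against 10.3% in KO-352 and 8.50% in CTRL-346. They were also higher in 7 of 7 mature neutrophil markers, whose sum was 2506, 4867 and 2552 CPM there, against 636 and 1055 CPM in KO-352 and CTRL-346, and in 6 of 12 dendritic cell markers. In the fit with a term for that share, the KO effect became −2.65 for Il7r and −1.05 for Dntt (edgeR adjusted p = 0.104 and 0.260), against 0.32 and 0.53 without it. Flt3 did not divide the libraries in this way: KO-352, at 82.2 CPM, lay above CTRL-350, at 23.5 CPM. Within each genotype, however, the Flt3 level rose with the share of reads outside genes. It was at 82.2, 101 and 178.3 CPM in KO-352, KO-178 and KO-179, and at 15.5 and 23.5 CPM in CTRL-346 and CTRL-350. The share of all genes with this order was not determined, so the order is not shown to be particular to Flt3. What the neutrophil transcripts or the reads outside genes contribute was not tested beyond that fit.

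Ikzf1 (ENSMUSG00000018654, chromosome 11, 11685003 to 11772926, plus strand) encodes Ikaros, a zinc finger factor required for lymphoid development that is used throughout early blood formation. It changed least between the populations. It was at 358, 317 and 272 CPM in LSK KO libraries, against 375 and 311 CPM in LSK CTRL libraries (overlapping; log2 fold change −0.11 ± 0.13). In GMP KO libraries it was at 250.4, 269 and 214 CPM, against 194 and 199 CPM in GMP CTRL libraries, with all KO libraries above (0.31 ± 0.13, edgeR adjusted p = 0.362). LSK exceeded GMP by 0.37 ± 0.12 in KO mice (edgeR adjusted p = 0.0231), a call lost without KO-1327 (0.0981) or KO-1333 (0.0537), and by 0.80 ± 0.15 in CTRL mice (0.00118).

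Satb1 (ENSMUSG00000023927, chromosome 17, 51736187 to 51833290, minus strand) encodes a chromatin organizer that supports lymphoid programmes in early progenitors. In GMP KO libraries it was at 67.2, 71.8 and 53.9 CPM, against 37.9 and 42.4 CPM in GMP CTRL libraries, again with all KO libraries above. The log2 fold change was 0.67 ± 0.15, 1.59-fold (edgeR adjusted p = 0.264); over 13 alternatives the adjusted p ran from 0.00752 to 0.809 and passed in 2, DESeq2 (0.00752) and the fit without KO-352 (0.0488). In LSK it was at 149, 122 and 125 CPM in KO libraries, against 137 and 108 CPM in CTRL libraries, which overlap (0.12 ± 0.12). The excess of LSK over GMP was 1.04 ± 0.14 in KO mice and 1.61 ± 0.17 in CTRL mice (edgeR adjusted p = 8.73e-05 and 2.96e-05).

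Bcl11a (ENSMUSG00000000861, chromosome 11, 24078056 to 24174123, plus strand) encodes a zinc finger repressor needed for B cell and dendritic cell development. It is the gene of the group whose KO libraries lay above all CTRL libraries in both populations. In LSK it was at 159.8, 155 and 149 CPM in KO libraries, against 135 and 138 CPM in CTRL libraries (log2 fold change 0.19 ± 0.07, edgeR adjusted p = 0.9998; 6.34% of all genes were separated this way). In GMP KO libraries it was at 61.0, 53.5 and 49.0 CPM, against 41.4 and 46.7 CPM in GMP CTRL libraries (0.29 ± 0.13, adjusted p = 0.366). These are small differences of similar size, and the difference of the KO effects, LSK minus GMP, was −0.12 ± 0.15. LSK exceeded GMP by 1.505 ± 0.10 in KO mice and 1.63 ± 0.12 in CTRL mice (edgeR adjusted p = 6.39e-07 and 3.21e-06).

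Notch1 (ENSMUSG00000026923, chromosome 2, 26457903 to 26516663, minus strand) encodes the receptor that directs progenitors to the T cell lineage. In GMP KO libraries it was at 58.9, 49.0 and 57.8 CPM, against 64.5 and 77.3 CPM in GMP CTRL libraries, so all KO libraries lay below (log2 fold change −0.37 ± 0.13, edgeR adjusted p = 0.325). In LSK it was at 182, 149.9 and 166 CPM in KO libraries, against 153 and 147 CPM in CTRL libraries; KO-1333 lay between the CTRL libraries (0.15 ± 0.09). The difference of the KO effects was 0.50 ± 0.17 (edgeR adjusted p = 0.425), and LSK exceeded GMP by 1.59 ± 0.11 in KO mice and by 1.08 ± 0.13 in CTRL mice (1.14e-06 and 8.64e-05).

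Ccr9 (ENSMUSG00000029530, chromosome 9, 123678439 to 123784330, plus strand) encodes a chemokine receptor that guides progenitors to the thymus, and it was the least abundant of the group per kilobase in LSK. It was at 7.40, 5.48 and 2.96 CPM in LSK KO libraries, against 7.06 and 3.01 CPM in LSK CTRL libraries, which overlap (log2 fold change 0.09 ± 0.41). In GMP it was at 0.731, 0.983 and 0.233 CPM in KO libraries, against 0.122 and 0.569 CPM in CTRL libraries, which overlap (0.91 ± 0.82, edgeR adjusted p = 0.626). The level in LSK was above that in GMP by 3.01 ± 0.66 in KO mice and 3.86 ± 0.85 in CTRL mice (edgeR adjusted p = 0.00245 and 0.00308). Of its exon bases 18.8% overlap AC165425.1 on the opposite strand, which averaged 1.4 reads a library in LSK and 0.6 in GMP.

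In LSK the spread of these genes followed the sex of the mice as well as single libraries. In 6 of the 10 (Flt3, Rag1, Dntt, Ikzf1, Satb1 and Ccr9) both male libraries, KO-1327 and CTRL-1326, lay above all 3 female libraries, against 15.7% of all genes. For Flt3 the male libraries were at 508 and 520 CPM and the female libraries at 398 to 405 CPM. KO-1327 was the highest LSK library in 8 of the 10 genes and in 7 of the 9 committed B cell markers. The share of all genes highest in KO-1327 was not determined, so these counts are not shown to be particular to either list. Within males, 1 library against 1, the log2 ratio of KO over CTRL was 0.93 for Rag1, 0.83 for Rag2, 0.45 for Il7r, 0.42 for Dntt, 0.25 for Notch1, 0.24 for Bcl11a, 0.12 for Satb1, 0.07 for Ccr9, −0.03 for Flt3 and −0.07 for Ikzf1. Within females, 2 KO libraries against 1 CTRL library, it was 0.22, −0.31, −0.04, −0.02, 0.10, 0.14, 0.19, 0.49, 0.02 and −0.08 in that order. It was thus larger in males for Rag1, Rag2, Il7r, Dntt, Notch1, Bcl11a and Ikzf1 and larger in females for Satb1, Ccr9 and Flt3, without a test. With sex as a term in the edgeR fit 0 of the 10 were called. The dendritic list was negative for 10 of 11 tested markers in LSK (median −0.74, 0 called by edgeR or DESeq2, 5 at an unadjusted p under 0.05, against 2.83% of all genes), with sums of 109, 131 and 108 CPM in KO libraries against 129 and 175 CPM in CTRL libraries, without a matching difference in Flt3.

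Other genes that are known to act with the group showed the population difference for lymphoid and IL-7 genes and no KO effect called by edgeR. Over all genes 30.7% were called higher and 30.1% lower in LSK in KO mice, and 28.2% higher and 27.3% lower in CTRL mice. Among 16 other lymphoid-primed genes, 12 were called higher and 1 lower in LSK than in GMP in KO mice. In CTRL mice 13 were called higher and 2 lower. The medians were 1.34 in KO and 1.67 in CTRL mice. Of 11 IL-7 signalling genes, 10 in KO mice and 9 in CTRL mice were called higher in LSK and 0 lower. Of the 9 paralogs of the group, 7 and 5 were called higher and 0 lower. The FLT3 signalling list divided evenly, with 5 higher and 5 lower of 17 in KO mice and 6 and 6 in CTRL mice, as did 6 known regulators of Flt3, with 3 higher and 3 lower in each genotype. The Notch pathway list had 7 higher and 4 lower of 17 tested in KO mice and 6 higher and 3 lower in CTRL mice, and the end-joining genes that complete V(D)J recombination had 2 higher and 4 lower of 11 in KO mice and 1 higher and 3 lower in CTRL mice. Flt3l, the ligand gene, was not analysed here.

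Between KO and CTRL, 0 genes of these 7 lists were called by edgeR in either population. In GMP the lymphoid-primed list had 7 positive and 7 negative of 14 tested (median 0.03), the FLT3 signalling list 6 and 11 of 17 (−0.17), the Flt3 regulators 2 and 3 of 5 (−0.02), the IL-7 list 5 and 6 of 11 (−0.06), the Notch list 9 and 5 of 14 (0.14), the end-joining list 6 and 5 of 11 (0.09) and the paralogs 3 and 4 of 7 (−0.14). The counts at an unadjusted p under 0.05, higher and lower, were 2 and 3, 1 and 0, 1 and 2, 1 and 0, 1 and 1, 1 and 0, and 0 and 1 in the same order, and DESeq2 called 2, 0, 1, 1, 1, 0 and 0, where 13.8% of all genes had such a p and DESeq2 called 4.32%. In LSK the medians ran from −0.03 to 0.05, 0 genes had an unadjusted p under 0.05 and DESeq2 called 0.

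The genes with the smallest p in each list in GMP did not share a direction, and the adjusted p-values that follow are edgeR's. Ets1, a lymphoid transcription factor gene, averaged 68.8 CPM in GMP KO and 122 CPM in GMP CTRL libraries (log2 fold change −0.83 ± 0.18, adjusted p = 0.264). Tcf4, which encodes an E protein of plasmacytoid dendritic and B cells, averaged 69.0 CPM in GMP KO and 53.8 CPM in GMP CTRL libraries (0.35 ± 0.10, 0.306). Ikzf3, the paralog that encodes Aiolos, averaged 0.590 CPM in GMP KO and 1.89 CPM in GMP CTRL libraries (−1.68 ± 0.52, 0.311), while Ikzf2, which encodes Helios, overlapped between the groups (−0.63 ± 0.32, 0.421). Hoxa9, a homeobox factor known to activate Flt3, averaged 25.8 CPM in GMP KO and 14.7 CPM in GMP CTRL libraries (0.80 ± 0.24, 0.311), and Cebpa, a myeloid factor, 206 CPM in KO and 252 CPM in CTRL libraries (−0.30 ± 0.10, 0.326). The adaptor gene Gab2 was separated upwards (0.64 ± 0.21, 0.317), and Sh2b3, whose product restrains cytokine signalling, downwards (−0.22 ± 0.10, 0.373). Of all genes, 17.7% were separated upwards and 14.6% downwards in GMP.

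Hes1, a target of Notch signalling, averaged 0.0362 CPM in GMP KO and 0.321 CPM in GMP CTRL libraries (−3.07 ± 0.72, edgeR adjusted p = 0.264). Every KO library lay below both CTRL libraries, as for Notch1 and 14.6% of all genes. These levels rest on 2, 7 and 2 reads in KO and 19 and 34 reads in CTRL libraries. Hes1 passed the filter only through the CTRL libraries and was named for its small p. Ncstn, a subunit of the protease that cleaves Notch receptors, was higher in KO libraries (0.31 ± 0.11, edgeR adjusted p = 0.333). Socs3, a feedback inhibitor of cytokine receptors, averaged 4.14 CPM in GMP KO and 1.12 CPM in GMP CTRL libraries (1.88 ± 0.58, 0.311), and the survival gene Bcl2 101 CPM in KO and 122 CPM in CTRL libraries (−0.28 ± 0.14, 0.410). Of the end-joining genes, Xrcc5, which encodes Ku80, was separated upwards, as were 17.7% of all genes (0.60 ± 0.21, 0.327), and Poll overlapped (−0.43 ± 0.23, 0.438). In LSK the corresponding genes were Sox4 (−0.13), Ccr7 (0.18), Bcl11b (−0.57), Ikzf4 (0.57), Lyn (−0.11), Pik3cd (0.11), Spi1 (−0.10), Cebpa (−0.16), Socs3 (0.70), Il7 (0.45), Adam17 (−0.30), Ncstn (−0.13), Hmgb2 (−0.20) and Xrcc6 (0.08), each a log2 fold change of KO over CTRL with an adjusted p of 0.9998. Of these, KO libraries were all above CTRL libraries in Il7, which encodes the ligand of the IL-7 receptor, and all below in Bcl11b, a T cell factor gene, and Lyn, a kinase gene, which 6.34% and 7.67% of all genes did.

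The genes whose levels were most like those of Flt3 over the 10 libraries were Yes1, Fstl1, Bend5, Spint1 and Hif3a. Likeness was the root mean square difference of log2 CPM, each gene centred on its own mean with 0.1 CPM added, over 14827 genes. The values were 0.385 for Yes1, 0.398 for Fstl1, 0.405 for Bend5, 0.409 for Spint1 and 0.413 for Hif3a. Like Flt3, all 5 had every GMP KO library above both GMP CTRL libraries, a separation that the choice of genes favours. Yes1, which encodes a kinase of the Src family, averaged 2.34 ± 0.877 CPM in GMP KO and 0.559 ± 0.209 CPM in GMP CTRL libraries, and 10.3 ± 0.580 CPM in LSK KO and 11.1 ± 3.47 CPM in LSK CTRL libraries (SD, n = 3 and 2).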

How the data were processed

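The authors deposited raw counts per Ensembl gene; per the submitters' processing notes the genome was mm10 (GRCm38) and the tools were DESeq 1.18.0, DESeq2 1.4.5, HTSeq 0.5.3p3 and STAR, with no role or order given. The sources used here do not state the annotation release or the strand setting. Libraries came from a stranded total RNA kit, per the labels' protocols. The deposited normalized tables hold a signal equal to the counts over a size factor of each library (at least 99.92% of genes matched within 0.1%), and served only to recover those factors. The number of genes listed is 45513 for LSK and 38924 for GMP. Lines that name no gene (of all GMP reads listed, 8.50% to 16.1% outside genes, 26.3% to 29.0% multiply aligned and 1.14% to 1.32% ambiguous) were left out, so genes with near-identical copies are undercounted. Total gene counts are given in the report; exact intervals describe counting error only, as these reads carry no molecular identifiers.

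Samples were grouped by the genotype and population in their titles. KO was compared with CTRL in each population separately with edgeR 4.0.16 (R 4.3.3): filterByExpr (minimum count 10), TMM, the two-sided quasi-likelihood test and Benjamini-Hochberg adjustment over all genes tested, with a threshold of 0.05. LSK against GMP and the difference of KO effects came from a fit of all 10 libraries over shared gene IDs. The SE of a log2 fold change was taken as its size over the root of F. Exact counting intervals used scipy 1.17.1. The edgeR step was tested on simulated counts with known changes. Alternatives were DESeq2 1.42.0, limma-voom (limma 3.58.1), RLE and deposited size factors, no filter, the joint fit, the share of reads outside genes or sex as a term, leaving out each library, and library totals without TMM. Promoters are from RefSeq and gene coordinates from GENCODE, both GRCm38, 1-based.

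The members and lists were chosen with earlier results of these data known. Named genes are Dnmt3a, the 10 members, in each list up to 2 genes with the smallest p per KO comparison, defining markers, and the 5 genes nearest to Flt3. One marker of the B cell list is not reported here.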

Additional observations from a re-analysis of the deposited data

How the results depend on the processing

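All 10 genes kept their direction for LSK against GMP in both genotypes under all 15 alternatives, and the calls lost were those of Rag2 in CTRL mice and Ikzf1 in KO mice given with those genes. KO against CTRL depended on the tool and on single libraries. In GMP the 6 genes called became 718 with DESeq2, 0 with limma-voom, 50 without the filter, 205 with a term for the share of reads outside genes and 182 in the fit of all libraries, and 1 to 172 when a library was left out (172 without KO-352; 2 without KO-178, 2 without KO-179, 1 without CTRL-350). The 0 members called in GMP became 3 with DESeq2, 2 without the filter, 2 with the share term, 2 in the fit of all libraries and 0 to 2 with a library left out (2 without KO-352). In LSK the 4 genes called became 21 with DESeq2, 27 without the filter, 0 in the fit of all libraries and 3 to 11 with a library left out (7 without KO-1333, 11 without CTRL-1326), and 0 members were called in each alternative. For the difference of KO effects the 5 genes called became 218 with DESeq2, 2 with limma-voom, 38 without the filter and 1 to 513 with a library left out (513 without KO-352, 15 without KO-179, 3 without KO-178 or KO-1333, and 1 without CTRL-346, CTRL-1326, CTRL-1330 or KO-1334). Its 0 members became 2 with DESeq2, 2 without the filter and 0 to 2 with a library left out (1 without KO-179, 2 without KO-352). The cause was not tested.

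Some log2 fold changes turned sign. With the term for reads outside genes Il7r was at −2.65 and Dntt at −1.05 in GMP, and with sex as a term Flt3 was at 0.000856 in LSK. With a library left out, GMP values ran from −0.68 to 7.68 for Il7r and −0.63 to 3.32 for Dntt. In LSK they ran from −0.22 to 0.12 for Flt3, −0.039 to 0.30 for Il7r, −0.18 to 0.85 for Rag1, −0.26 to 0.39 for Rag2, −0.11 to 0.26 for Dntt, −0.22 to 0.0105 for Ikzf1, −0.026 to 0.27 for Satb1 and −0.39 to 0.80 for Ccr9. The difference of KO effects ran from −6.94 to 0.82 for Il7r and −3.22 to 0.75 for Dntt. Where a lone CTRL library was left, it was assumed to vary like the other groups. Library totals without TMM were chosen as an alternative after seeing the data. No paired analysis was possible because no 2 groups carry the same replicate numbers.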

Other observations

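Other genes near Flt3 on chromosome 5 were looked up after its values were seen, within 200 kb on either side. Pan3, which encodes a subunit of a deadenylase, was at 286, 328 and 239 CPM in GMP KO libraries, against 190.4 and 211 CPM in GMP CTRL libraries (log2 fold change 0.49 ± 0.15, edgeR adjusted p = 0.312). Flt1, a receptor gene of the VEGF family, was at 25.0, 31.3 and 23.1 CPM in GMP KO libraries, against 17.1 and 15.7 CPM in GMP CTRL libraries (0.67 ± 0.18, 0.280). Every GMP KO library lay above both GMP CTRL libraries in each, as for Flt3, a separation that 17.7% of all genes showed. In LSK, Pan3 was at 338, 276 and 304 CPM in KO libraries, against 318 and 304 CPM in CTRL libraries, which overlap. Flt1 was near 1 CPM in LSK, at 0.733 to 1.24 CPM in KO libraries and 1.33 to 1.49 CPM in CTRL libraries, which did not overlap (log2 fold change −0.49 ± 0.34, edgeR adjusted p = 0.9998). Gsx1, Pdx1, Cdx2 and Urad in the same window had too few reads to be tested.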
